A study of Mus musculus with 12 samples.

Results

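Of the 24831 human RbFox1 eCLIP peaks, 2530 (10.2%) were isolated, with no other peak on the same strand within 10 kb on either side. They were selected by position alone. Peaks were ordered along each chromosome and strand, and the gap on both sides of a member had to exceed 10000 nt, with a missing neighbour at a chromosome end counted as a gap of that size. The positions come from peaks detected in cells with doxycycline against cells without it, so the enrichment, p and width of the members belong to the comparison that chose them and are described below without a test.

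In eCLIP, ultraviolet light joins a protein to the RNA it touches, and the fragments held by the protein are recovered with an antibody and sequenced. The cells were T-REx-293, a human embryonic kidney line in which doxycycline switches on RbFox1, and all of them came from the single clone 77-5, which also carries the mouse TrkB-BAC minigene. Untreated cells (No Dox) gave 2 immunoprecipitated libraries, and cells given doxycycline for 48 h (+Dox) gave 2, at a dose that the labels state as 0.5 mg/ml and the figure legends of the study in μg/ml. The series labels the organism as mouse, whereas these peaks lie on human chromosomes of hg38. Both groups carry the inducible RbFox1 and the minigene and differ in doxycycline alone, so any effect of the drug itself cannot be told apart from that of RbFox1. The values compare +Dox with No Dox immunoprecipitates, without line 32-1, whose minigene lacks Cluster 1 and Cluster 2, and without the 6 inputs. Whether inputs had a part in choosing the listed peaks is not stated in the sources used here.

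RbFox1 belongs to a small family of RNA-binding proteins, with RbFox2 and RbFox3, that regulate alternative splicing in brain, heart and muscle. Its single RNA recognition motif binds (U)GCAUG in pre-mRNA. Bound downstream of an alternative exon it usually favours inclusion of that exon and bound upstream its skipping, and many of its sites lie deep inside introns. It works within a large assembly of splicing regulators (LASR), in which several RNA-binding proteins meet on one transcript, and the study asked whether closely packed motifs carry its activity. The human genome sequence and annotation were not used here, so the isolated peaks are given by position, and neither their genes nor their motifs are named.

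Each peak has 1 log2 fold enrichment (normalized reads of +Dox over No Dox) and 1 −log10 p, merged by the authors over both replicates. There is no value for a single library and no read count, so the depth and the error between replicates are unknown. The list held no peak under a log2 fold enrichment of 3 (8-fold) or a −log10 p of 3. Its highest −log10 p, 400, is treated here as a ceiling. That value stands apart, the next highest among isolated peaks being 68.2. How it was assigned is not stated in the sources used here, so it is not read as a measured p. Every difference described here is between peaks that had already passed those limits.

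The isolated peaks were modestly enriched. Their median log2 fold enrichment was 3.43, or 10.8-fold, with quartiles of 3.19 and 3.77 and a highest value of 5.40 (42.3-fold). The median over the 22301 other peaks was 3.72 (13.1-fold), and the highest 6.79 (111-fold). Of the isolated peaks, 1770 (70.0%) lay below the median of the whole list. Among the 1000 most enriched peaks of the list 11 were isolated, and among the 1000 least enriched 189 were. The median −log10 p was 5.26 (quartiles 3.88 and 7.87), against 11.0 for the other peaks (quartiles 6.51 and 20.6). The isolated peaks were wider in the median than the other peaks. Their median width was 100 nt (quartiles 78 and 125 nt, from 8 to 309 nt), against 80 nt for the others, and 289 of them (11.4%) were over 150 nt wide, against 4.94% of the others. Single peaks with a same-strand neighbour within 10 kb had nearly the same share over 150 nt, 11.3%, and of the 1000 widest peaks of the list 224 were isolated. Only 98 (3.87%) were narrower than 50 nt, against 16.2%.

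These values continued a gradation across the list. Same-strand peaks at most 500 nt apart were taken as 1 group, which left 2036 single peaks with a neighbour between 500 nt and 10 kb away, 7314 peaks in groups of 2 or 3, 10566 in groups of 4 to 9 and 2385 in groups of 10 or more. The median log2 fold enrichment was 3.43 for isolated peaks, 3.47 for single peaks with a near neighbour, and 3.58, 3.80 and 4.08 for the groups in rising size. The median width ran the other way, at 100, 95, 88, 76 and 57 nt. The median −log10 p was 5.26, 6.17, 7.86, 13.1 and 33.3. Isolated peaks thus stood at the end of each order, with the single peaks that had a near neighbour next to them. Of all peaks 6068 abut the one before them on the same strand, and by the rule none of these is isolated. The part of abutting peaks in the widths was not tested.

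**Figure D1:**
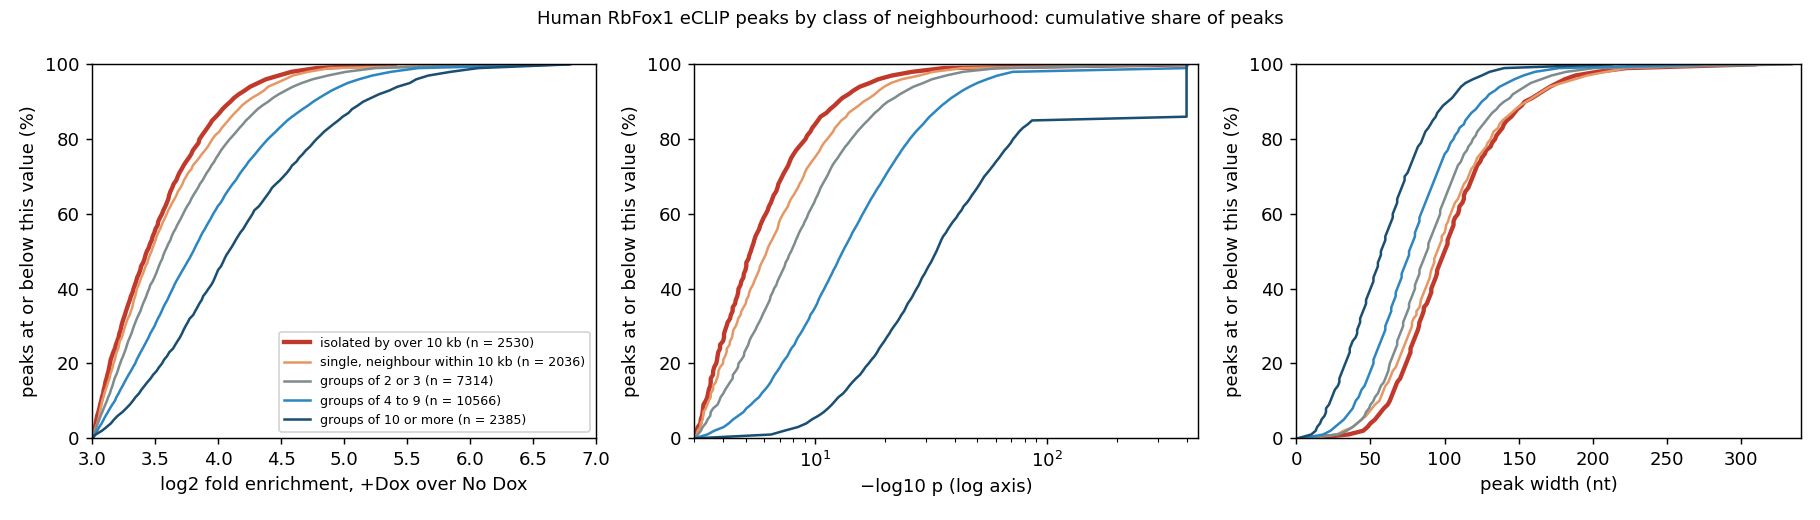
Cumulative share of human peaks (y axis, percent of the class) at or below a given log2 fold enrichment (left), −log10 p (middle, log axis) and width in nt (right), with 1 line for each class of neighbourhood. The line of the 2530 isolated peaks is leftmost for enrichment and p, with medians of 3.43 and 5.26, and for width it runs to the right of the grouped peaks, with a median of 100 nt.

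A stricter threshold, with log2 fold enrichment 4 or higher and p 1e-05 or lower, was passed by 225 isolated peaks (8.89%), where 29.0% of all human peaks pass it. The share was 14.1% for single peaks with a near neighbour, 20.8% for groups of 2 or 3, 36.6% for groups of 4 to 9 and 54.8% for groups of 10 or more. For the 361 single peaks whose neighbour lay 5 to 10 kb away it was 8.86%, as low as for isolated peaks. A log2 fold enrichment of 4 alone was reached by 345 isolated peaks (13.6%, against 31.4% of the whole list) and the p alone by 1391 (55.0%, against 82.4%). Because membership was set on this same comparison, these shares describe the members and test nothing.

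The 225 strict members had a median log2 fold enrichment of 4.30 (19.7-fold) and a median −log10 p of 7.42. They were wider than the remaining 2305 members, with medians of 115 and 99 nt. Their median distance to the nearest same-strand peak was 58897 nt, against 73346 nt for the remaining members. They lay on 22 chromosomes, 121 of them on the + strand. Chromosome 21, which had the fewest isolated peaks, 41, had none. The strict share over all peaks of a chromosome was not computed. Of the members, 1166 (46.1%) passed the p but not the enrichment, 1019 (40.3%) passed neither and 120 (4.74%) passed the enrichment alone. Over all human peaks 82.4% passed the p and 31.4% the enrichment, each with or without the other. The shares of these combinations over the whole list were not computed, so the 3 counts describe the members only.

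The 10 most enriched isolated peaks reached log2 fold enrichments from 5.05 to 5.40, 33.0-fold to 42.3-fold. They lay on 8 chromosomes, 4 on the + strand and 6 on the − strand. The highest was at chr11:9040465-9040715 on the − strand, 251 nt wide, with 5.40 and a −log10 p of 11.1. Its nearest same-strand peaks were 56921 and 62917 nt away. In the whole list it ranked 385.

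The next most enriched was chr20:20548810-20548965 (− strand), at 5.36, with a neighbour 20311 nt away. Then came chr3:171136148-171136286 (− strand) at 5.30 and chr5:132393393-132393537 (+ strand) at 5.26. The peak at chr3:67620725-67620885 (− strand) had 5.25, with gaps of 158833 and 1374021 nt. All of these were at least 139 nt wide, well above the median width of the isolated peaks.

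The sixth was narrower. This peak, chr17:67073207-67073280 (− strand), spanned 74 nt and had a log2 fold enrichment of 5.19 with a −log10 p of 16.2. No same-strand peak lay within 1185423 nt of it. The peaks at chr10:17144824-17144987 (− strand) and chrX:18680157-18680316 (+ strand) shared a log2 fold enrichment of 5.14 and differed in −log10 p, at 18.3 and 9.18.

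The ninth peak, at chr14:61051297-61051369 (+ strand), spanned 73 nt and also had 5.14. It had the lowest −log10 p of the 10, 7.49. The tenth, at chr10:124530148-124530254 (+ strand), had 5.05 with a −log10 p of 13.4. The median width of the 10 was 150.5 nt. None had a −log10 p over 18.3, so the most enriched isolated peaks were not those with the smallest p.

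The isolated peaks with the smallest p had low enrichment. The ceiling of 400 was reached by 2 of them (0.0791%), where 2.05% of all human peaks reach it. The peak at chrX:24077567-24077675 (+ strand, 109 nt) had a log2 fold enrichment of 3.23 (9.36-fold), and the one at chr1:116404440-116404481 (+ strand, 42 nt) had 3.16 (8.94-fold). They ranked 1790 and 1967 of the 2530 by enrichment. The chromosome 1 peak had no same-strand peak within 421932 nt, while a peak on the opposite strand lay 3886 nt away.

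Below the ceiling the highest −log10 p was 68.2, at chr10:125066295-125066498 (− strand), a peak of 204 nt with a log2 fold enrichment of 3.19. The next were chr17:57272087-57272226 (+ strand) with 66.4 and a log2 fold enrichment of 3.59, and chr15:72230692-72230801 (− strand) with 62.3 and 3.25. The 8 highest below the ceiling, a number set after the values were seen, ran from 47.7 to 68.2 in −log10 p, and 1 of the 8, chr1:30949926-30950035 (− strand), had a log2 fold enrichment over 4, at 4.02 (16.3-fold). The read counts behind these peaks are not known here.

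**Figure D2:**
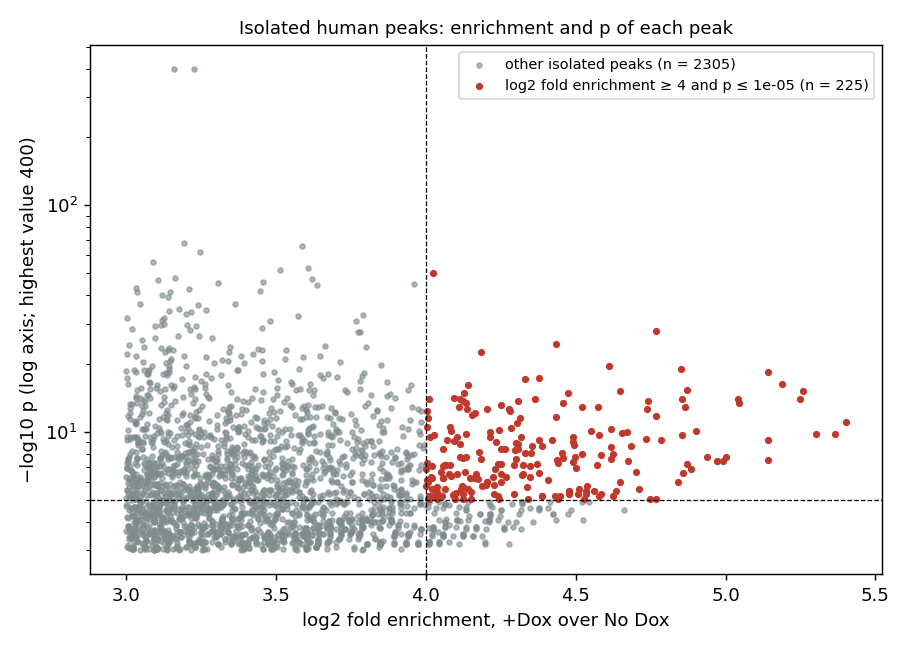
Each point is 1 of the 2530 isolated peaks, with its log2 fold enrichment (x axis) and its −log10 p (y axis, log scale), and dashed lines mark 4 on the x axis and a p of 1e-05. The 225 peaks past both lines are red, and the 2 at the ceiling of 400 lie at 3.16 and 3.23 on the x axis.

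Across the 2530 isolated peaks enrichment and p were nearly unrelated (Spearman's rho 0.0132, Pearson's r -0.0288), whereas across the 22301 other peaks rho was 0.288 and r 0.145. All points come from the same merged libraries, so these coefficients are descriptions. Across the isolated peaks width had a rho of 0.210 and an r of 0.0412 with −log10 p. With enrichment its rho was 0.0378 and its r 0.0694. The values of r with −log10 p include the peaks at the ceiling of 400, 2 isolated and 508 others. How far the ceiling moves r was not tested. Isolated and other peaks were also set side by side at like p. Between a −log10 p of 3 and 4 the median log2 fold enrichment was 3.47 for 666 isolated peaks and 3.46 for 1587 others. Between 10 and 20 it was 3.45 for 312 isolated peaks and 3.80 for 6423 others. From 20 upward it was 3.24 for 89 isolated peaks and 3.98 for 5798 others. That range has no upper limit and includes the peaks at the ceiling, so p is not alike within it. Isolated peaks made up 29.6% of the peaks in the lowest of these ranges and 1.51% in the highest. At the weak end of the list isolated and other peaks were thus enriched alike in the median. The difference between them was larger at smaller p, already in the closed range of 10 to 20. In each of these ranges the isolated peaks were the wider, with medians of 89 and 68 nt in the lowest and 111 and 82 nt in the highest.

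Distances between isolated peaks and the rest spanned a wide range. The gap to the nearest same-strand peak had a median of 71261 nt (quartiles 27104 and 243712 nt), from 10027 nt to 11670722 nt. Within 20 kb of their nearest neighbour lay 395 isolated peaks (15.6%). Over 100 kb from it lay 1072 (42.4%), and over 1 Mb lay 164 (6.48%). A further same-strand peak was missing on one side for 32 members, the first or last of a chromosome strand.

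Enrichment hardly changed with that distance up to 1 Mb. The median log2 fold enrichment was 3.47 for gaps of 10 to 20 kb, 3.42 for 20 to 50 kb, 3.42 for 50 to 100 kb, 3.42 for 100 to 500 kb and 3.42 for 500 kb to 1 Mb. The 164 peaks more than 1 Mb from any other same-strand peak were higher, with a median of 3.59 (12.1-fold) and an upper quartile of 3.93. Their median −log10 p of 4.89, however, was the lowest of these ranges. The strict threshold was passed by 10.6% of the isolated peaks with gaps of 10 to 20 kb, by 6.80% of those at 100 to 500 kb and by 13.4% of those beyond 1 Mb, the last being 22 of 164. Single peaks with a neighbour at 500 nt to 2 kb had a median of 3.50, and those at 5 to 10 kb had 3.43, so the medians on either side of the 10 kb limit were alike. The strict threshold was passed by 15.6% of the former and 8.86% of the latter. Over all members the rho of distance with enrichment was 0.00658 and with −log10 p -0.0580.

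**Figure D3:**
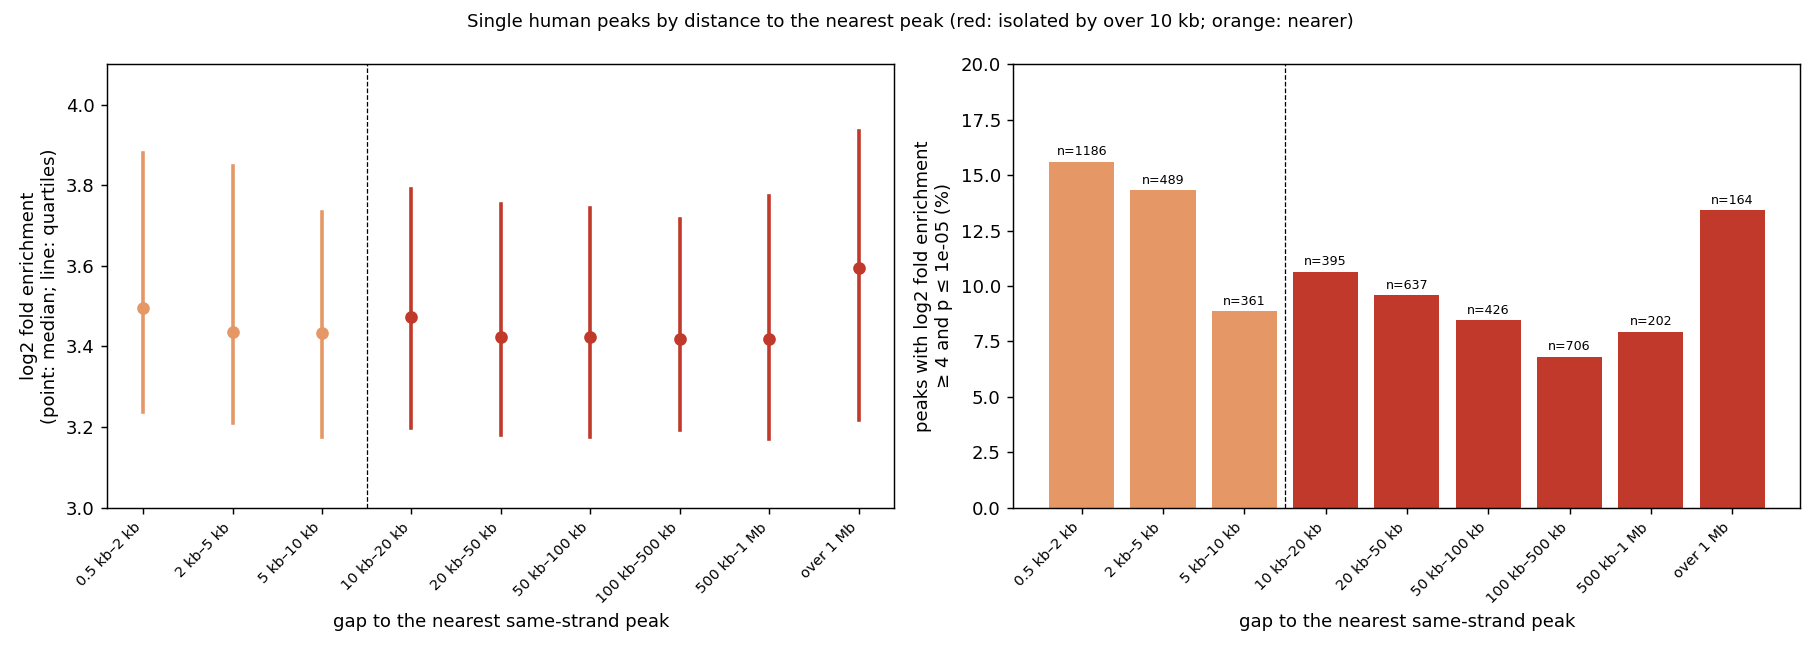
Single human peaks by the gap to the nearest same-strand peak (x axis), with the median and quartiles of the log2 fold enrichment on the left and the percentage past the strict threshold on the right. Orange marks single peaks with a neighbour within 10 kb, red the isolated peaks. Medians lie between 3.42 and 3.50 except beyond 1 Mb, where 164 peaks have 3.59.

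The most remote peak was at chrX:85027542-85027604 (+ strand, 63 nt), with no same-strand peak within 11670722 nt. Its log2 fold enrichment of 4.33 (20.1-fold) and −log10 p of 8.10 pass the strict threshold. The other 4 of the 5 most remote do not. They were chr3:98521691-98521735 (− strand, 3.94), chr9:69078780-69078862 (+ strand, 3.03), chr4:67530360-67530420 (− strand, 3.79) and chr1:99716425-99716527 (− strand, 3.82), in log2 fold enrichment. Their −log10 p ran from 3.42 to 4.28, and their widths from 45 to 103 nt. For each of the 5 a peak of the opposite strand lay much closer, from 218561 to 853769 nt away.

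Peaks nearest the limit of 10000 nt are given as examples from either side of it. Just inside were chr17:44087077-44087176 (− strand, 100 nt), with a gap of 10027 nt, a log2 fold enrichment of 3.72 and a −log10 p of 3.78, and chr10:129488746-129488838 (+ strand, 93 nt), with 10076 nt, 3.21 and 3.29. Another member, 71 nt wide, had the same gap of 10076 nt, with 3.29 and 5.32. Just outside were chr19:16839526-16839571 (+ strand, 46 nt), with 9987 nt, 3.44 and 10.9, and chr14:67006463-67006564 (+ strand, 102 nt), with 9977 nt, 4.25 and 4.53. The widest isolated peak, 309 nt at chr1:201733540-201733848 (− strand), had a log2 fold enrichment of 3.76, and the narrowest, 8 nt at chr21:25982745-25982752 (− strand), had 3.36.

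The neighbours of isolated peaks were of every class. The nearest same-strand peak was itself isolated for 944 members (37.3%) and a single peak with a near neighbour for 316 (12.5%). It belonged to a group of 2 or 3 for 772 (30.5%), to a group of 4 to 9 for 464 (18.3%) and to a larger group for 34 (1.34%). With each group or single peak counted as 1 unit, the list had 9787 units. Of these 25.9% were isolated peaks and 20.8% single peaks with a near neighbour. Groups of 2 or 3 made up 31.5%, groups of 4 to 9 19.9% and larger groups 1.93%. The rule leaves free gaps on both sides of an isolated peak, which bears on these shares, so they are a description. The median log2 fold enrichment of the members was 3.43 beside an isolated peak, 3.47 beside a group of 2 or 3 and 3.44 beside a group of 4 to 9. Read along a strand, 1030 members had no isolated peak next to them. The others followed one another in runs of 2 to 9 with no other peak between them.

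With a limit of 100 kb between neighbours, chosen after the data were examined, 593 members (23.4%) fell into 276 runs. The longest had 5 peaks, and there were 2 of them. The one on chromosome 3 (+ strand) extended over 130687 nt, from 53518420 to 53649106. Its peaks had log2 fold enrichments of 3.74, 3.78, 3.11, 3.65 and 4.45 in order of position, and −log10 p of 3.36, 4.80, 4.89, 3.85 and 5.19. The last of them, chr3:53648998-53649106, was the most enriched and the only one past the strict threshold. The gaps between them were 34843, 42859, 20624 and 31893 nt. The other run, on chromosome 11 (+ strand) from 120411139 to 120692048, had log2 fold enrichments from 3.18 to 3.83 and no peak past the strict threshold. Such runs are separate sites by the distance used here, and whether they share a transcript was not analysed.

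Isolated peaks lay on all 23 chromosomes of the list and not on its unlocalized sequence of chromosome 14, which held 3 peaks. The + strand held 1337 (52.8%) and the − strand 1193, against 53.2% on the + strand for the other peaks. Their share among a chromosome's peaks ran from 6.44% on chromosome 22 (62 of 963) to 13.0% on chromosome 3 (206 of 1585). It was also low on chromosome 17 (7.45%) and chromosome 19 (7.61%), and high on chromosome 2 (12.5%) and chromosome 11 (12.0%). Chromosome 1 had the most isolated peaks, 260, and chromosome 21 the fewest, 41. On each of the 23 chromosomes the median log2 fold enrichment of the isolated peaks was below that of the other peaks of the same chromosome, with differences (isolated minus others) from -0.45 to -0.15. Chromosome 9 showed the widest difference, with medians of 3.32 and 3.77, and chromosome 7 the narrowest, with 3.50 and 3.65. On each of the 23 the isolated peaks also had the larger median width. Chromosome 18 had the highest median enrichment of isolated peaks, 3.58, over 55 peaks.

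**Figure D4:**
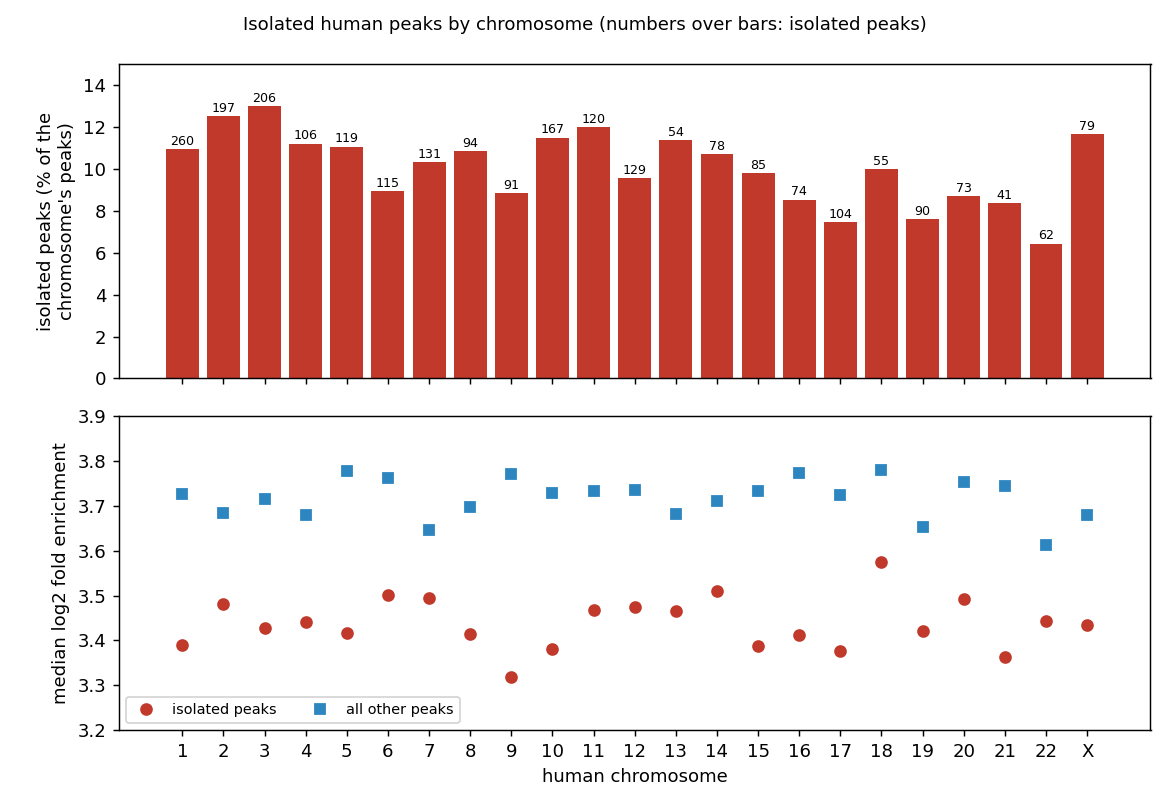
Top, isolated peaks as a percentage of all peaks of each human chromosome, with their number over each bar. Bottom, the median log2 fold enrichment of isolated peaks (red circles) and of all other peaks (blue squares) by chromosome, where the red circle is the lower on each of the 23 chromosomes.

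Peaks close to one on the opposite strand were rare throughout the list. Within 10 kb of one lay 17 isolated peaks (0.672%) and 192 of the other peaks (0.861%). Among single peaks with a near neighbour the share was 0.589%. No isolated peak overlapped one, and 14 of the 22301 other peaks did. The 17 had a median log2 fold enrichment of 3.30, against 3.43 for the remaining 2513. Single peaks with a near neighbour had 3.30 against 3.47 in the same way. Across all other peaks the order was reversed, at 3.88 against 3.71.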

How the data were processed

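The authors moved molecular identifiers to read names and removed PCR duplicates with UMI-tools, trimmed adapters with cutadapt, discarded reads matching repeats or rRNA, aligned what remained with STAR to hg38 plus the minigene and called peaks with CLIPper. The deposited list gives each peak a −log10 p-value (from read counts, by Fisher's exact or Yates' chi-square test) and a log2 fold enrichment, both computed by the authors for +Dox over No Dox. The name of the list carries IDR, the usual abbreviation for a filter on reproducibility between replicates, and the settings of the merging are not given in the sources used here. Columns for single libraries numbered 0.

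The 24831 human peaks were handled in Python 3.11.15, using pandas 2.3.3 for the tables, numpy 2.4.6 for gaps and percentiles and matplotlib 3.10.9 for plots. Positions count from 1. Gaps run from the highest end so far to the next start on the same chromosome and strand. The finding of isolated peaks and groups was tested on simulated data.

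The members, limits and lists were chosen with earlier results of these data known. Named peaks were the 10 most enriched, those at the highest −log10 p, the 5 most remote, the widest, the narrowest and 2 on each side of the limit. The parts of this rule for genes, and the planned gene regions and motifs, were not used here, since the gene tables at hand are of mouse. Samples were grouped by their titles, which left 6 inputs unassigned. The 2 minigene lists were not used here. Alternatives were other gap limits, either strand, joined peaks and stricter thresholds.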

Additional observations from a re-analysis of the deposited data

How the results depend on the processing

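The 2530 isolated peaks became 2891 with a gap over 5000 nt, 2135 over 20000 nt, 2513 with neighbours on either strand and 2855 with abutting peaks joined first. They became 1498 over 50000 nt. Taking gaps only among the 7208 peaks of the stricter threshold gave 1321, of which 1096 had peaks below that threshold within 10 kb, so being isolated depends on which peaks are listed. The median log2 fold enrichment of 3.43 became 3.47 with abutting peaks joined, where each region takes its highest value. Isolated minus all other peaks, it differed by -0.28. The difference was -0.29 over 5000 nt, -0.27 over 50000 nt and -0.18 with the stricter threshold first, so the direction held in each of these. With abutting peaks joined first this difference was not computed. The median width of 100 nt became 99 nt over 5000 nt, 101 nt over 20000 nt and 105 nt with abutting peaks joined. The width of the other peaks was not compared under these settings, so they do not test whether isolated peaks stay the wider. The 225 strict members became 345 by enrichment alone and 1391 by p alone, as fewer criteria pass more. The other alternatives moved no value at the digits printed.

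No paired analysis was possible because each peak has 1 value merged over replicates, which also leaves no replicate to omit. The alternatives for gene regions and motifs were not run. With the depth unknown, a neighbour with few reads cannot be told from no neighbour.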

Other observations

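Many isolated peaks carried exactly the same pair of values as another peak. Of the 2530, 1168 (46.2%) had a log2 fold enrichment and a −log10 p that recurred, to 6 decimals, elsewhere in the list, against 20.1% of the other peaks. Among peaks with a −log10 p under 5 the shares were close, at 71.6% of 1139 isolated peaks and 68.0% of 3235 others, and at a −log10 p of 10 or more they were 3.49% and 2.50%. The most common pair among isolated peaks, a log2 fold enrichment of 3.06 with a −log10 p of 3.11, was held by 8 of them and by 12 peaks of the list.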
